A study of Homo sapiens with 12 samples.

Results

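The Krüppel-like factors (KLFs) are zinc finger transcription factors, and 10 members of the family were followed here in THP-1 cells that had been given extra KLF4 by lentivirus. All array probes that the platform annotation assigns to KLF2, KLF3, KLF4, KLF6, KLF7, KLF9, KLF10, KLF11, KLF13 and KLF16 were taken, by current or older symbol, and no measured value entered the choice. This gave 13 of the 47323 probes in the table, for 9 of the 10 genes. KLF11 has no listed probe and was not analysed here. After a filter on dim probes, 11 of the 13 probes, for 8 genes, were tested among 22479 probes.

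THP-1 is an established human line from an acute monocytic leukaemia. CRISPR constructs in the cells were directed against the microRNA miR-150 (lines 150-3 and 150-4), against p21, the protein of CDKN1A (lines p21-2 and p21-3), or a non-targeting construct (NT-2 and NT-3). Each line was infected with a virus carrying KLF4 or with an empty control virus (ECV), and total RNA was taken 5 days later, when the CRISPR cells were 17 days past selection. This makes 6 groups of 2 bead arrays: miR-150 lines with KLF4 and with ECV, p21 lines with KLF4 and with ECV, and NT lines with KLF4 and with ECV. All 12 samples thus carry a CRISPR construct and a lentivirus. The labels do not say whether the lines of a target are clones or separate cultures, nor which part of KLF4 the virus carries. The p-values describe the spread between these lines only, and 2 arrays a group limit the precision of every comparison.

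KLF proteins bind GC-rich and CACCC elements through 3 zinc fingers near their carboxyl end. They differ in the partners that the rest of the protein recruits. KLF2, KLF4, KLF6 and KLF7 are known mainly for recruiting acetyltransferases and activating genes, KLF3 for recruiting the corepressor CtBP, and KLF9, KLF10, KLF11, KLF13 and KLF16 for recruiting SIN3A and histone deacetylases. In blood, KLF4 is known as a factor that promotes monocyte differentiation, and KLF2 as one that holds T cells and monocytes in a quiet state.

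The promoter windows of KLF9, KLF13 and KLF6, which rose with every array above the filter level, and of KLF4 itself are shown because KLF proteins bind the GC and CACCC boxes searched for in them. Each holds 250 bases before and 50 bases after the RefSeq gene start, in GRCh38.p14, 5′ to 3′ on the gene's strand. Capitals mark matches to the GT box CACCC or the GC box GGGCGG, on either strand (GGGTG and CCGCCC).

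KLF9: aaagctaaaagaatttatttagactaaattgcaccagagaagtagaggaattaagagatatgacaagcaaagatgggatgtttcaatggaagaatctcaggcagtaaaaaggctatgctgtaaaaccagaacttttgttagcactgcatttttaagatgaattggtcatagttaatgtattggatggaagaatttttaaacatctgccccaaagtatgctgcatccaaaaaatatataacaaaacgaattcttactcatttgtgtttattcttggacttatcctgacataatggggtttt
KLF13: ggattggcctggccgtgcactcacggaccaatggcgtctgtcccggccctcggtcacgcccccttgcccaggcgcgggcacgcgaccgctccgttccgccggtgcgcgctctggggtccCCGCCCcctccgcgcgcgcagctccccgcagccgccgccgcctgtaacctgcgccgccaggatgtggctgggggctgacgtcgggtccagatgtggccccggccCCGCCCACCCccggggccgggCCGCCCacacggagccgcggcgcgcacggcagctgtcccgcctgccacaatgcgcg
KLF6: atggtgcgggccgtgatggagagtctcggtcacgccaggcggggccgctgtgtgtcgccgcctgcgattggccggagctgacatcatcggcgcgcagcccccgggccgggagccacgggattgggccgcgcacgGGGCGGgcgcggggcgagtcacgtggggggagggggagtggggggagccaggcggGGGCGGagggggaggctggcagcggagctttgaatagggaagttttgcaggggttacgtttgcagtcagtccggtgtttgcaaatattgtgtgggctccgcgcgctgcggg
KLF4: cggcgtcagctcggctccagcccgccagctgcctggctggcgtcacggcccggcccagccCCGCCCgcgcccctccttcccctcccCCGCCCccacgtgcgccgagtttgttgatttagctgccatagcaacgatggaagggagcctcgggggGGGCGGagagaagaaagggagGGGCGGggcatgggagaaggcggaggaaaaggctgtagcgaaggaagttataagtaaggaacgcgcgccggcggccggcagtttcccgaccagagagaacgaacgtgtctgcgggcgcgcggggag

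The KLF9 window (chr9:70414608-70414907, minus strand) holds neither motif and is 32.7% G and C. The KLF13 window (chr15:31326585-31326884, plus strand) is 78.3% G and C and has 1 GT box and 3 GC boxes, the GT box overlapping one GC box. The KLF6 window (chr10:3785160-3785459, minus strand) has 2 GC boxes and no GT box. The KLF4 window (chr9:107489720-107490019, minus strand) has 4 GC boxes and no GT box. These motifs are short and common: of 35116 RefSeq promoter windows of the same length, 59.9% hold a GT box and 45.0% a GC box. A match is a description of the sequence, and its absence says only that the letters do not occur in that window. Windows on chromosome 8 were left out of the search for members. Among the rest, windows were found for 8 of the 10 members, and not for KLF3 or KLF10.

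The targeted and marker genes gave the setting. CDKN1A read a log2 level of 11.1 and 11.4 in p21 lines with KLF4, against 11.7 and 12.5 in NT lines with KLF4, and 8.88 and 9.11 in p21 lines with ECV, against 9.16 and 9.22 in NT lines with ECV. Neither difference passed the test (adjusted p = 0.187 with KLF4 and 0.994 with ECV), and the level of an mRNA need not show an edited gene. miR-150 itself was not analysed here. Of 10 THP-1 markers, 9 had a probe and all 9 passed the filter. MPO lay near the filter level, with means of 7.23 with KLF4 and 7.31 with ECV. Of these 9, 4 rose and 2 fell, where 17.8% and 22.6% of all genes did. No T cell, megakaryocyte or epithelial marker passed it, while 2 B cell, 1 erythroid and 1 fibroblast marker did and none of those 4 changed. The 6 mature monocyte and macrophage markers (CD14, ITGAM, CD163, S100A8, S100A9 and FCN1) all rose, with a list mean of 11.4 to 12.2 over the KLF4 arrays, against 8.70 to 9.04 over the ECV arrays. The part of this shift in the KLF results was not tested. In bulk RNA, a change in the share of cells of a type and a change in RNA per cell cannot be told apart. The NT lines with KLF4 differed more from each other than any other pair (root mean square SD of 0.178 over probes, against 0.0911 to 0.109 in the other groups). Some results that rest on NT-2 or NT-3 with KLF4 are therefore given with and without that array.

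Across the 3 targets, KLF4 virus raised the mRNA of KLF9, KLF13 and KLF6, each read by 1 probe, and raised 1 of 2 KLF3 probes and 1 of 3 KLF10 probes. It lowered 1 of 2 KLF4 probes. Of the 11 tested member probes, 5 rose and 1 fell, where 14.6% of all tested probes rose and 19.2% fell. Under cyclic loess, rises made up 52.3% of all called probes, against 43.1% as deposited. The median change of the member probes was 0.22 on the log2 scale, against -0.01 for all probes. KLF3 ILMN_2048507, KLF7 and KLF10 ILMN_1667594 passed the filter only through their KLF4 arrays (with 0, 0 and 1 ECV arrays above the level), so these counts and the median describe the members and support nothing. Changes are KLF4 virus minus ECV throughout, on the deposited log2 scale, which compresses the change of dim probes. In the plot of values by virus, lines join the arrays of each CRISPR line.

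**Figure D1:**
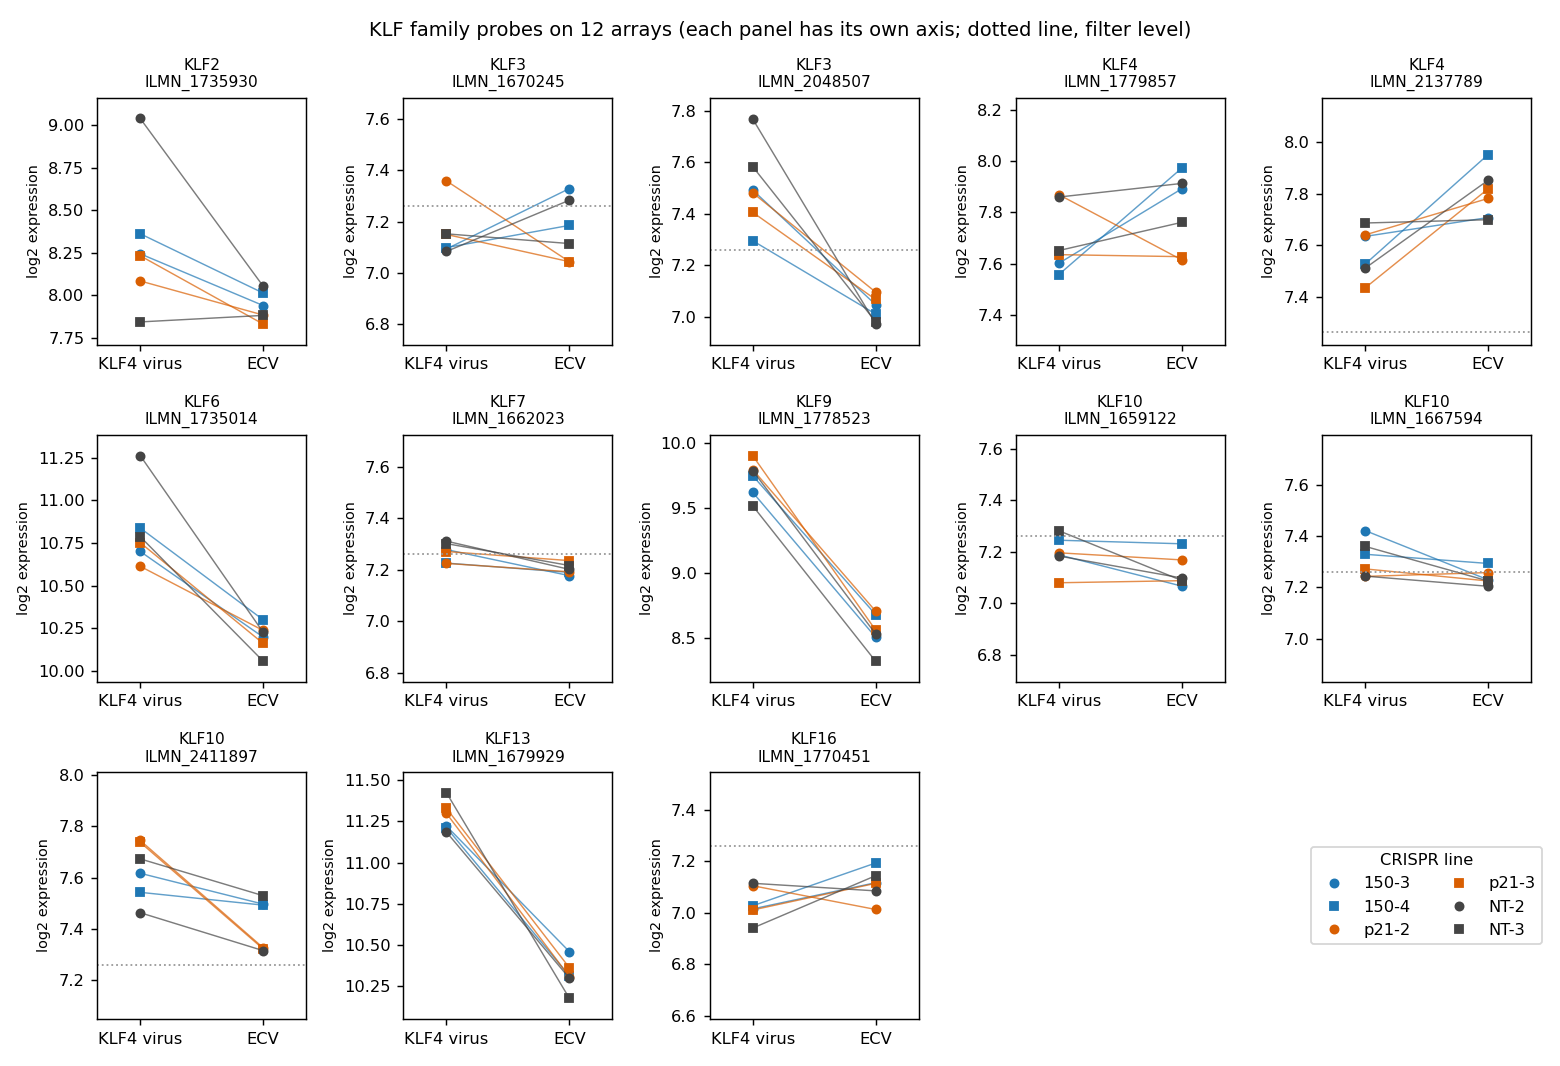
Log2 expression of each of the 13 KLF family probes (one panel each, with its own axis) on the 6 KLF4 virus arrays (left) and the 6 ECV arrays (right), with arrays of the same line joined, colour for target and shape for line. The dotted line is the filter level of 7.26. All 6 joined lines run higher under KLF4 virus for KLF6, KLF9, KLF13 and KLF3 probe ILMN_2048507, with no overlap between the viruses. They also do for KLF7 and KLF10 probe ILMN_2411897, where the viruses overlap.

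Of the members known as SIN3A partners, KLF9 changed most. KLF9 is induced by glucocorticoids and thyroid hormone in many tissues. Its probe (ILMN_1778523) read 9.62 and 9.75 in miR-150 lines, 9.80 and 9.90 in p21 lines and 9.79 and 9.52 in NT lines with KLF4 virus. With ECV it read 8.51 and 8.68 in miR-150 lines, 8.71 and 8.56 in p21 lines and 8.53 and 8.32 in NT lines. The lowest KLF4 array thus lay above the highest ECV array. KLF9 rose by 1.18 (SE 0.065, a 2.26-fold rise, adjusted p = 3.62e-09, limma), with line differences between 1.07 in 150-4 and 1.34 in p21-3. In proportion to its size, this spread was the narrowest of the 5 probes that rose.

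KLF13, first known as an activator of the chemokine gene CCL5 in T cells, came next in size. With KLF4 virus its probe (ILMN_1679929) read 11.22 and 11.21 in miR-150 lines, 11.30 and 11.33 in p21 lines and 11.18 and 11.42 in NT lines. With ECV it read 10.46 and 10.31 in miR-150 lines, 10.31 and 10.36 in p21 lines and 10.30 and 10.17 in NT lines. The groups did not overlap. KLF13 rose by 0.96 (SE 0.0556, 1.95-fold, adjusted p = 6.01e-09). The line differences ran from 0.76 in 150-3 to 1.25 in NT-3, so the line with the largest KLF13 difference was not the one with the largest KLF9 difference.

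KLF10, also called TGF-beta inducible early gene 1, has 3 probes that gave unequal results. Probe ILMN_2411897 was higher in all 6 lines, but its KLF4 arrays (7.46 to 7.74, median 7.65) overlapped its ECV arrays (7.32 to 7.53, median 7.41). It rose by 0.22 (SE 0.0553, adjusted p = 0.0067), or by 0.33 with normexp background correction. The p21 lines stood apart: the line differences there were 0.42 and 0.41, against 0.05 to 0.15 in the other lines. Probe ILMN_1667594, annotated to another KLF10 transcript, differed by 0.07 (SE 0.0479, adjusted p = 0.289) and was near the filter level, above it on 5 arrays. Probe ILMN_1659122 was above the level on 1 array and was not tested. KLF16, a repressor first described at dopamine receptor genes, was below the level on all 12 arrays, at 6.94 to 7.11 with KLF4 virus and 7.01 to 7.19 with ECV, and was not tested.

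Among the members known as acetyltransferase partners, KLF6, which is induced by injury and promotes inflammatory genes in macrophages, was the only one to pass the test upward for the mean effect. With KLF4 virus its probe (ILMN_1735014) read 10.70 and 10.84 in miR-150 lines, 10.61 and 10.75 in p21 lines and 11.26 and 10.79 in NT lines. With ECV it read 10.20 and 10.30 in miR-150 lines, 10.24 and 10.16 in p21 lines and 10.23 and 10.06 in NT lines. The groups did not overlap, and NT-2 with KLF4 was the highest array by a wide gap. KLF6 rose by 0.63 (SE 0.0742, 1.55-fold, adjusted p = 1e-05). The line differences ran from 0.38 in p21-2 to 1.04 in NT-2. Leaving out each array in turn kept the mean change between 0.55 and 0.71, past the test each time.

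KLF2 did not pass the test for the mean effect (0.37, SE 0.138, adjusted p = 0.0538). With KLF4 virus its probe (ILMN_1735930) read 8.24 and 8.36 in miR-150 lines, 8.08 and 8.23 in p21 lines and 9.04 and 7.84 in NT lines. With ECV it read 7.94 and 8.01 in miR-150 lines, 7.88 and 7.83 in p21 lines and 8.05 and 7.88 in NT lines. KLF2 was thus higher in 5 of 6 lines, by 0.20 to 0.99, and lower by -0.04 in NT-3. The NT-2 array decides the size: without it the mean change is 0.17 (adjusted p = 0.0275), and without NT-3 with KLF4 it is 0.57 (adjusted p = 2.06e-08), both past the test. With the CRISPR line as a block it also passed (adjusted p = 0.0121).

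Neither KLF4 probe rose with the KLF4 virus. Probe ILMN_2137789 read 7.63 and 7.53 in miR-150 lines, 7.64 and 7.43 in p21 lines and 7.51 and 7.69 in NT lines with KLF4 virus. With ECV it read 7.71 and 7.95 in miR-150 lines, 7.78 and 7.82 in p21 lines and 7.85 and 7.70 in NT lines. It fell by 0.23 (SE 0.0626, adjusted p = 0.00964) and was lower in 6 of 6 lines, but by only -0.01 in NT-3, and the closest arrays of the viruses all but met. Probe ILMN_1779857 differed by -0.10 (SE 0.0587, adjusted p = 0.22), with KLF4 arrays at 7.56 to 7.87 and ECV arrays at 7.62 to 7.97. Both probes are annotated to the KLF4 transcript, and where they lie in it relative to the delivered sequence was not examined, and they give no check of which virus a sample received. KLF7, best known in neurons, was above the level on 4 arrays and all 4 carried KLF4 virus, while its ECV arrays were all below it. It differed by 0.07 (SE 0.0453, adjusted p = 0.301).

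KLF3, the CtBP-binding repressor and a known target of KLF1 in red cells, has 2 probes that disagree. Probe ILMN_2048507 read 7.49 and 7.30 in miR-150 lines, 7.48 and 7.41 in p21 lines and 7.77 and 7.58 in NT lines with KLF4 virus, all above the filter level. With ECV it read 7.05 and 7.01 in miR-150 lines, 7.10 and 7.07 in p21 lines and 6.97 and 6.98 in NT lines, all below it. The measured rise was 0.48 (SE 0.0539, adjusted p = 6.75e-06). Since the ECV arrays have only a bound, the fold is at least 1.18. With normexp background correction the value for KLF3 ILMN_2048507 was 0.80. Probe ILMN_1670245 was above the level on 3 arrays and differed by -0.01 (SE 0.0555, adjusted p = 0.918), with line differences of either sign between -0.24 and 0.31. Both probes carry the same transcript annotation.

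The rises were uneven across lines in different ways. In 5 lines KLF9 and KLF13 had the largest differences of the 13 probes. In NT-2, KLF6 (1.04) and KLF2 (0.99) came between KLF9 (1.26) and KLF13 (0.89). Every KLF4 array lay above every ECV array for KLF6, KLF9 and KLF13, as it did for 8.79% of all tested probes. The same held for KLF3 ILMN_2048507, but that probe passed the filter only through its KLF4 arrays, so its separation supports nothing. Every KLF4 array lay below every ECV array for KLF4 ILMN_2137789, as for 10.8% of all tested probes. Of all tested probes, 14.3% were higher in all 6 lines and 18.2% lower in all 6.

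**Figure D2:**
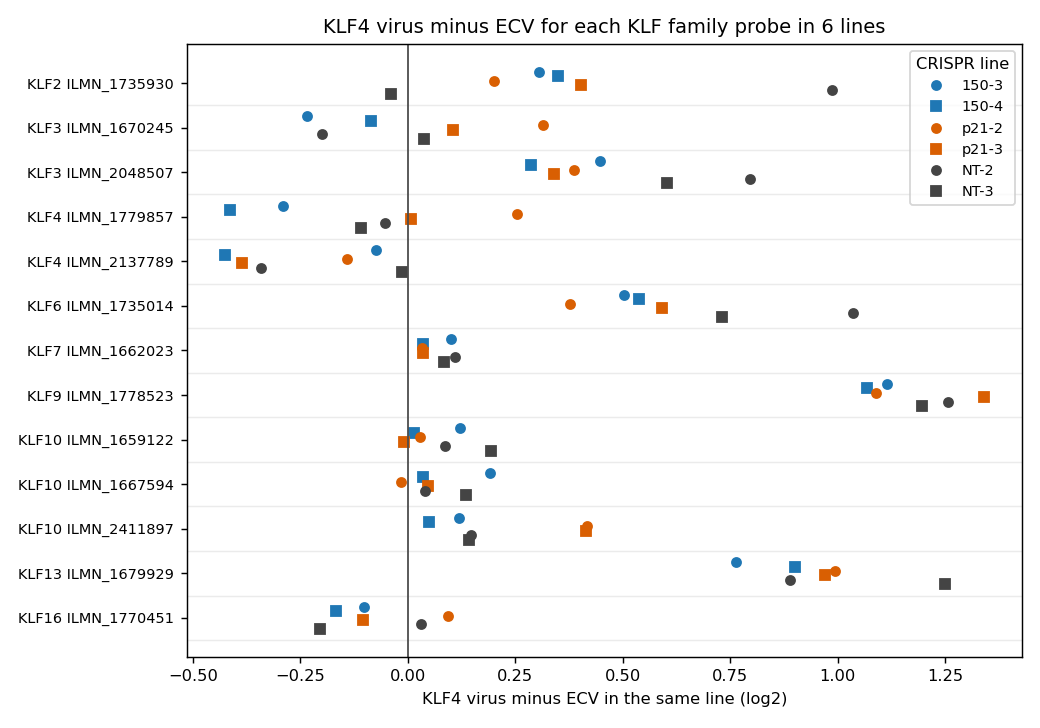
KLF4 virus minus ECV within each of the 6 CRISPR lines (log2, horizontal) for each of the 13 KLF family probes (rows), with colour for target and shape for line. KLF9 lies between 1.07 and 1.34 and KLF13 between 0.76 and 1.25, while KLF2 spreads from -0.04 in NT-3 to 0.99 in NT-2.

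Within the miR-150 lines, 4 member probes rose and 1 fell, where 6.01% and 6.37% of all probes did. Among those that rose is KLF3 ILMN_2048507, which passed the filter only through its KLF4 arrays. These counts therefore describe the members and support nothing. KLF9 rose by 1.09 (adjusted p = 1.5e-05), KLF13 by 0.83 (adjusted p = 4.3e-05), KLF6 by 0.52 (adjusted p = 0.0148) and KLF3 ILMN_2048507 by a measured 0.37 (at least 0.13 above the filter level, adjusted p = 0.018). KLF4 probe ILMN_1779857 read 7.60 and 7.56 with KLF4 virus, against 7.89 and 7.97 with ECV, and fell by 0.35 (SE 0.102, adjusted p = 0.0342). That call ended when any single miR-150 array was left out (adjusted p of 0.106 to 0.199) and under cyclic loess (adjusted p = 0.0513). KLF6 lost its call without the ECV array of 150-3 (adjusted p = 0.138) or 150-4 (0.0581) or the KLF4 array of 150-4 (0.136). KLF3 lost its call without the ECV array of 150-3 (adjusted p = 0.0903) or 150-4 (0.113) or the KLF4 array of 150-3 (0.17).

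Within the p21 lines, 5 member probes rose and none fell, where 6.68% and 7.6% of all probes did. These counts again include KLF3 ILMN_2048507, which passed the filter only through its KLF4 arrays, and support nothing. KLF9 rose by 1.21 (adjusted p = 4.81e-06), KLF13 by 0.98 (adjusted p = 8.72e-06), KLF6 by 0.48 (adjusted p = 0.0196), KLF10 ILMN_2411897 by 0.42 (adjusted p = 0.00863) and KLF3 ILMN_2048507 by a measured 0.36 (at least 0.18 above the level, adjusted p = 0.0164). For KLF10 both p21 lines read 7.74 with KLF4 virus, against 7.33 and 7.32 with ECV. With any of the 4 p21 arrays left out, only KLF9 and KLF13 of these 5 passed the test (adjusted p for KLF10 of 0.0559 to 0.0607).

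Within the NT lines, 4 member probes rose and none fell, where 9.34% and 11.2% of all probes did. Here too the counts include KLF3 ILMN_2048507, which passed the filter only through its KLF4 arrays, and support nothing. KLF9 rose by 1.23 (adjusted p = 3.07e-06), KLF13 by 1.07 (adjusted p = 2.52e-06), KLF6 by 0.88 (adjusted p = 0.000211) and KLF3 ILMN_2048507 by a measured 0.70 (at least 0.42 above the level, adjusted p = 9.96e-05). All 4 kept their calls without any single array, with KLF6 between 0.65 and 1.12. KLF2 differed by 0.47 (SE 0.24, adjusted p = 0.198). That value was -0.12 without NT-2 with KLF4 and 1.07 (adjusted p = 1.02e-07) without NT-3 with KLF4.

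**Figure D3:**
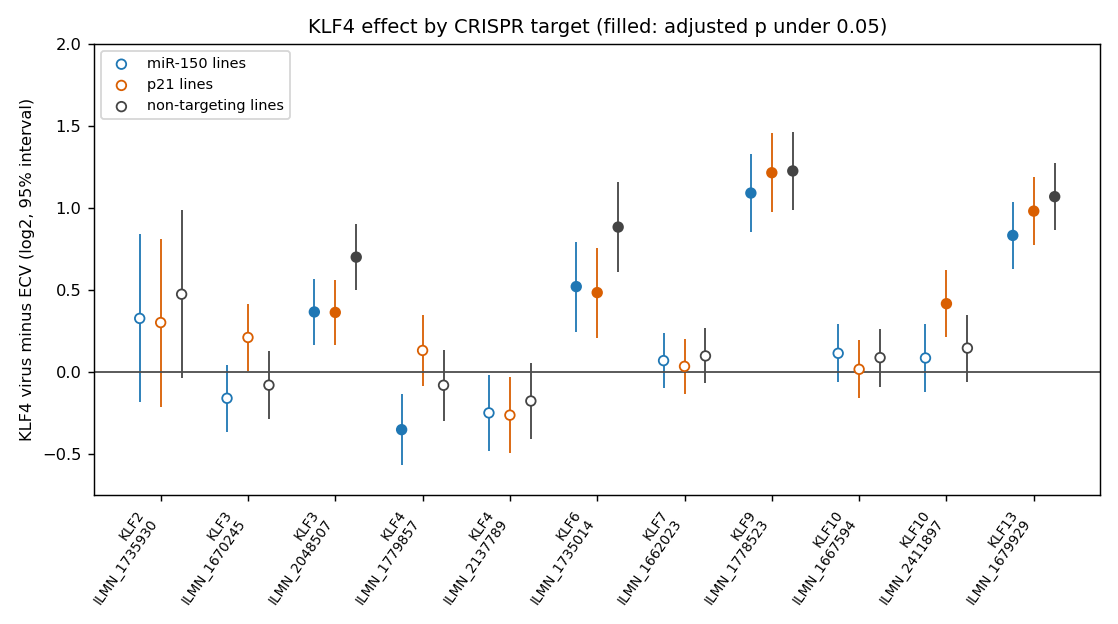
KLF4 virus minus ECV (log2, vertical) with its 95% interval in miR-150 lines, p21 lines and non-targeting lines, left to right within each of the 11 tested KLF family probes, from the limma fit. Filled points passed an adjusted p under 0.05. KLF9 and KLF13 are filled in every target with overlapping intervals, and KLF10 ILMN_2411897 is filled in p21 lines only, which is no test of a difference between targets.

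The difference of the KLF4 effect between targets was tested directly. None of the 11 member probes passed for miR-150 minus NT lines (0.00445% of all probes called) or for p21 minus NT lines (0.00445%), and none for p21 minus miR-150 lines (0%), a comparison added after the data were seen. At an unadjusted p under 0.05 there were 1, 3 and 3 member probes in these comparisons, against 984, 1300 and 635 of all 22479 probes. The first and the second count include KLF3 ILMN_2048507. The KLF6 effect was smaller than in NT lines by -0.36 in miR-150 lines (SE 0.182, 95% interval -0.75 to 0.03, adjusted p = 0.983) and by -0.40 in p21 lines (SE 0.182, interval -0.79 to -0.01, adjusted p = 0.849). The KLF3 ILMN_2048507 effects have only bounds, so no difference between them is given. The KLF10 ILMN_2411897 effect was larger in p21 than in NT lines by 0.27 (SE 0.136, interval -0.02 to 0.56, adjusted p = 0.849) and larger than in miR-150 lines by 0.33 (interval 0.04 to 0.62, adjusted p = 0.9997). For KLF9, the intervals of the difference ran from -0.47 to 0.21 for miR-150 minus NT lines and from -0.35 to 0.33 for p21 minus NT lines.

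These counts depend on 1 array. Without NT-3 with KLF4, NT-2 is the only NT array with KLF4. The effect then differed for miR-150 minus NT lines by -0.75 for KLF2 and -0.60 for KLF6. For p21 minus NT lines it differed by -0.77 and -0.64. In that fit the lone array is assumed to vary like the others, and far more of all probes passed than with all 12 arrays. Member probes that passed there are thus no result about the family. Without NT-2 with KLF4, or without any array other than NT-3 with KLF4, no member probe passed.

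Within one virus, the level of the family did not pass a test between targets. With KLF4 virus, none of the 11 probes was called for miR-150 minus NT lines (0% of all probes) or for p21 minus NT lines (0.04%). At an unadjusted p under 0.05 there were 1 and 2, against 1159 and 2283 of all 22479 probes. With ECV, none was called for miR-150 minus NT lines (0%) or for p21 minus NT lines (0.00445%). None had an unadjusted p under 0.05 there, against 826 and 1195 of all probes. The largest ECV differences were for KLF4 ILMN_1779857, lower by -0.22 in p21 lines (interval -0.43 to 0.00), and KLF9, higher by 0.21 in p21 lines (interval -0.03 to 0.45) and by 0.17 in miR-150 lines (interval -0.07 to 0.41). With KLF4 virus, KLF6 was lower by -0.34 in p21 than in NT lines (SE 0.128, adjusted p = 0.393) and by -0.26 in miR-150 than in NT lines (adjusted p = 0.879). Without NT-3 with KLF4, the differences for miR-150 minus NT lines with KLF4 virus were -0.74 for KLF2, -0.49 for KLF6 and -0.38 for KLF3 ILMN_2048507. For p21 minus NT lines they were -0.88 for KLF2 and -0.58 for KLF6. That fit rests on 1 NT array with KLF4, and far more of all probes passed in it than with all 12 arrays.

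For the 3 members that rose by at least 0.5 with every array above the filter level, the genes with the most similar pattern over the 12 arrays were read by Pearson's r. All 12 points share the step between viruses, so the coefficients mostly describe that step. KLF6 was most like SERPINA1 (alpha-1-antitrypsin, r = 0.990), GPR137B, a lysosomal membrane protein (0.990), and IRF7, an interferon regulatory factor (0.987). KLF9 was most like HBEGF, an EGF receptor ligand (0.990), SMIM14 (0.985) and the costimulatory ligand CD86 (0.985). KLF13 was most like the adhesion ligands CD58 (0.994) and ICAM2 (0.990) and the chemokine receptor ACKR3 (0.992).

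Of 16 other KLF and SP genes, 15 had a probe and 6 passed the filter, of which 2 rose and 2 fell. At the level of genes, by the brightest probe of each, 17.8% of 12129 genes rose and 22.6% fell. This list and those below were chosen with earlier results of these data known, so their counts describe the lists and support nothing. SP1, a general GC box activator, rose by 0.25 (SE 0.0596, adjusted p = 0.00446) and SP2 by 0.24 (adjusted p = 0.00676). SP4 fell by 0.35 (SE 0.0545, adjusted p = 0.000139), and in all 6 lines. KLF1, the red cell factor, fell by 0.14 (adjusted p = 0.0383), a call lost with the line as a block (adjusted p = 0.0589), and its mean of 7.14 with KLF4 virus lay below the filter level. SP3 (-0.05) and SP8 (-0.02) did not pass. The list median was -0.04, against -0.01 for all genes.

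Among 14 corepressors and coactivators that KLF proteins recruit, 1 rose (17.8% of all genes did) and 6 fell (22.6%). The list median was -0.09. KAT2B, the acetyltransferase PCAF, rose by 0.45 (SE 0.0574, adjusted p = 2.32e-05). KAT2A, the related GCN5, fell by 0.67 (SE 0.0737, adjusted p = 5.37e-06), and the deacetylases HDAC2 by 0.33 (adjusted p = 0.000262) and HDAC1 by 0.25 (adjusted p = 0.00113). The other 3 that fell were SIN3A (-0.18), HDAC3 (-0.22) and FHL3 (-0.22). These 3 did not pass under cyclic loess, where 3 of the 14 fell.

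The MEK5, ERK5 and MEF2 cascade induces KLF2 and KLF4 in endothelium. Of its 7 genes, 3 rose (17.8% of all genes did) and 1 fell (22.6%), with a median of 0.13. MAPK7, the kinase ERK5, rose by 0.51 (SE 0.0731, adjusted p = 6.78e-05), MEF2A by 0.18 (adjusted p = 0.0107) and MAP2K5, the kinase MEK5, by 0.18 (adjusted p = 0.0137). MEF2D fell by 0.25 (SE 0.0515, adjusted p = 0.00131).

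KLF10 and KLF11 belong to the class of TGF-beta signalling and its early response. Of 14 tested genes of this class, 5 rose (17.8% of all genes did) and 2 fell (22.6%), with a median of 0.05. The DNA binding inhibitors ID1 and ID2 rose by 0.91 (SE 0.0538, adjusted p = 7.01e-09) and 0.80 (adjusted p = 3.42e-07), the corepressor TGIF1 by 0.63 (adjusted p = 1e-06) and the inhibitory SMAD7 by 0.61 (adjusted p = 7.36e-06). The receptor TGFBR2 was also higher (0.54), and SMAD6 (-0.42) and SMAD4 (-0.22) were lower.

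Of 8 tested glucocorticoid receptor targets, the class that holds KLF9, 4 rose (17.8% of all genes did) and 1 fell (22.6%). The list median was 0.19. SGK1, a kinase that regulates ion transport, rose by 1.25 (SE 0.0659, adjusted p = 2.4e-09), the phosphatase DUSP1 by 0.73 (adjusted p = 0.00157), the metallothionein MT2A by 0.31 (adjusted p = 0.000638) and ERRFI1 by 0.24 (adjusted p = 0.00409). FKBP5 and TSC22D3, both widely used readouts of the receptor, differed by -0.18 (adjusted p = 0.0465, a call lost with the line as a block) and 0.01 (adjusted p = 0.93). The members of this list thus did not move one way. For DUSP1 the value is 0.52 without NT-2 with KLF4.

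Of 10 tested genes reported as KLF2 or KLF4 targets in leukocytes and endothelium, 9 rose (17.8% of all genes did) and none fell (22.6%). The list median was 0.83. The gut-homing integrin ITGB7 rose by 2.77 (SE 0.0777, adjusted p = 3.13e-12), CDKN1A by 2.58 (SE 0.114, adjusted p = 4.1e-10), and TXNIP, an inhibitor of thioredoxin, by 1.02 (adjusted p = 6.07e-09). NOS3, the endothelial nitric oxide synthase, was called too (adjusted p = 2.11e-08), at 8.37 to 9.11 with KLF4 virus, against at most 7.26 with ECV, where 1 of 6 arrays barely passed the filter level. The size of its change is therefore not given. HMOX1, NFE2L2, THBD and CD14 were also higher, by 0.96, 0.70, 0.67 and 0.61. KLF3 ILMN_2048507 was called too, but its ECV arrays all lay below the filter level, so its fold is at least 1.18. KLF3 probe ILMN_1670245 differed by -0.01. KLF3 and NOS3 passed the filter only through their KLF4 arrays, so the count and the median of this list support nothing. For CD14 the value is 0.38 without NT-2 with KLF4, still past the test (adjusted p = 0.000184). S1PR1, the receptor for leukocyte egress, did not pass (-0.02).

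KLF2, KLF4, KLF6 and KLF10 are often placed among the immediate early genes. Of 12 tested genes of this class, 7 rose (17.8% of all genes did) and 2 fell (22.6%), with a median of 0.50. IER3 rose by 2.03 (SE 0.14, adjusted p = 3.92e-08), the mRNA-decay factor ZFP36 by 1.58 (adjusted p = 4.83e-09), ATF3 by 0.55 (adjusted p = 7.19e-06) and the survival factor MCL1 by 0.45 (adjusted p = 3.04e-06). JUN, DUSP1 and JUNB were also higher (0.79, 0.73 and 0.58). EGR1 was lower (-0.56), as was FOSB (-0.37), and FOS, EGR3 and IER2 did not pass. All 7 that rose had their largest line difference in NT-2, as did KLF2 and KLF6. So did genes of other lists, among them ITGB7, CDKN1A and SGK1, while ID1, ID2 and KLF9 did not. The share over all genes was not counted, so this is no trait of the class. For DUSP1 the line difference was 1.67 in NT-2, against 0.25 in NT-3 and 0.34 to 0.85 in the other lines. For JUNB it was 1.09, against 0.22 in NT-3 and 0.35 to 0.70 in the others. Without NT-2 with KLF4 the mean change was 0.52 for DUSP1 and 0.44 for JUNB. Values without that array are given above for KLF2, and for KLF6 as the lowest value when each array was left out in turn.

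**Figure D4:**
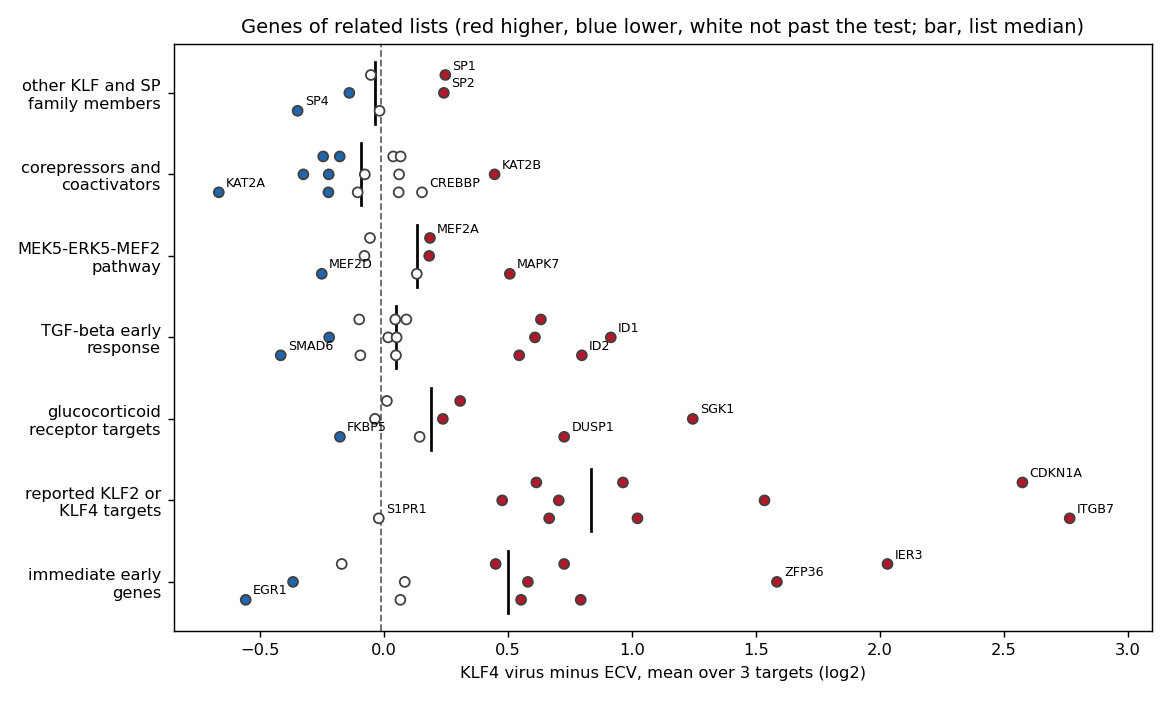
KLF4 virus minus ECV, mean over the 3 targets (log2, horizontal), for the tested genes of 7 lists related to the KLF family (rows), each point a gene by its brightest probe. Red points rose, blue points fell and white points did not pass an adjusted p under 0.05; black bars are list medians and the dashed line is the median of all genes, -0.01. The reported KLF2 or KLF4 targets have the highest median, 0.83, with ITGB7 at 2.77. That list holds KLF3 and NOS3, which passed the filter only through their KLF4 arrays.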

How the data were processed

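Biotin-labelled cRNA from 12 THP-1 samples was run on Illumina bead arrays, per the labels. The authors deposited 1 log2 value per probe and array for 47323 probes (6.69 to 14.8), and these were used. Their array medians all lie near 7.17, which is what between-array normalization leaves. How they were normalized, the scanner software and any background subtraction are not stated in the labels or the file headers. A further deposited table of raw values has 24 columns whose names match no label, and it was not used.

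Probes were named by the platform annotation: 30113 had 1 symbol, 8 had several and 17202 were not listed. A probe was kept where its log2 value lay above 7.26 on at least 2 arrays, the 95th percentile of a background made by mirroring values below the mode. With limma 3.58.1 in R 4.3.3, 1 mean per group was fitted to 12 arrays (6 residual degrees of freedom), and p-values were adjusted by Benjamini-Hochberg over all 22479 kept probes. A probe was called at an adjusted p under 0.05. The fit was tested on simulated data in which each probe had the same spread in every group. It was thus not tested for a wider group, such as the NT lines with KLF4. Figures used matplotlib 3.10.9 under Python 3.11.15. A probe below the level on every array of a virus has only a bound there: the fold is the KLF4 mean against the level.

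Each CRISPR line named in the labels has a KLF4 and an ECV array, so lines pair samples. Within a line, deviations of the 2 arrays from group means correlated at -0.04 for miR-150, 0.06 for p21 and 0.07 for NT lines over probes. The line entered as a block in an alternative. Other alternatives changed the filter, normalization, background correction, variance model, array weights, samples fitted or threshold, or left out each array.

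All member probes are named. For each related list the 4 genes with the smallest p are named, and every tested KLF and SP gene. Other members of the lists, the targeted CDKN1A and the marker genes were named after their values were seen. Genes of similar pattern are the 3 with the highest r for each member that rose by at least 0.5. The members and lists were chosen with earlier results of these data known. Promoter windows are from RefSeq.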

Additional observations from a re-analysis of the deposited data

Results flagged for a closer look

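In the KLF4 arrays, KLF6 (ILMN_1735014) read 11.3 in NT-2, far from the other 5 arrays at 10.6 to 10.8. KLF3 probe ILMN_1670245 read 7.36 in p21-2, against 7.08 to 7.15 in the other KLF4 arrays. These were 2 of 39 sets of 6 values examined, and chance alone marks about 5% of such sets.

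Some KLF4 effects had opposite signs in every line of 2 targets. KLF4 probe ILMN_1779857 was higher in both p21 lines and lower in both miR-150 and both NT lines. Its effect differed by 0.48 for p21 minus miR-150 lines (adjusted p = 0.9997) and by 0.21 for p21 minus NT lines (adjusted p = 0.872). KLF3 probe ILMN_1670245 was higher in both p21 lines and lower in both miR-150 lines, a difference of 0.37 (adjusted p = 0.9997). None of these 3 differences passed the limma test.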

How the results depend on the processing

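For the mean KLF4 effect, 6 or 7 member probes were called under every alternative. The number tested was 11, but 8 under the stricter filters and 13 without a filter. At an adjusted p under 0.01, 2 were called in miR-150 lines and 3 in p21 lines, against 5 in each at 0.05. Leaving out 1 array gave 4 to 5 calls in NT lines, 2 to 6 in miR-150 lines and 2 to 6 in p21 lines. For differences, leaving out 1 array gave member calls only where that array was NT-3 with KLF4. These were in the KLF4 effect and in the level with KLF4 virus, each minus NT lines. Far more of all probes passed in that fit than with all 12 arrays. The other differences stayed at 0. With the CRISPR line as a replicate block, calls were 7 for the mean effect (KLF2 added, adjusted p = 0.0121), 4 in NT, 5 in miR-150 and 5 in p21 lines, and 0 for every difference between targets. KLF2 also passed with the strict filter (adjusted p = 0.0492), cyclic loess (0.0401), normexp (0.0434) and array weights (0.00863).

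Signs turned when 1 array was left out: KLF3 ILMN_1670245 for the mean effect (-0.0452 to 0.0243, with 0.0177, 0.000965 and 0.0134 between) and in NT lines (-0.17 to 0.00362), KLF2 (-0.12 to 1.07, the upper value called) and KLF4 ILMN_1779857 (-0.19 to 0.0228) in NT lines, and KLF10 ILMN_1667594 (-0.000388 to 0.0324) in p21 lines. Cyclic loess turned the balance of all called probes: rises made up 52.3% for the mean effect, against 43.1%, and 56.5% in NT lines, against 45.4%. Normexp background correction raised KLF3 ILMN_2048507 to 0.80 for the mean effect and 1.16 in NT lines, and KLF10 ILMN_2411897 to 0.33 for the mean effect. With only the groups compared in the fit, 2109 probes were called in NT lines, against 4619. In miR-150 lines there were 4185, against 2783, and in p21 lines 4715, against 3210. In those fits KLF2 also passed in miR-150 lines (adjusted p = 0.0149, limma) and in p21 lines (0.0203). KLF4 ILMN_2137789 passed in p21 lines (0.0489). Probes near the filter level have no usable fold.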
